A study of Mus musculus with 6 samples.

Results

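The replication-dependent histone genes encode the H1, H2A, H2B, H3 and H4 proteins that package new DNA. They were examined in total RNA of bone marrow-derived macrophages (BMDMs) with or without the glycolytic enzyme PKM2. The genes were chosen by symbol alone, as rows of the count table named in the earlier form (Hist1h) or in the newer form (H1f1 to H1f6, H2ac, H2bc, H3c or H4c followed by a number), without pseudogenes. This gave 47 of the 23935 genes in the table, of which 5 encode H1, 9 H2A, 14 H2B, 9 H3 and 10 H4. Only 7 rows carried the earlier form of symbol and 40 the newer form, so the union of both forms was used, and the 7 are also summed apart. GENCODE M21 places 44 of the 47 genes on chromosome 13 and 3 on chromosome 3.

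All 6 libraries came from BMDMs that had matured for 7 days in M-CSF. Priming lasted 16 h and combined LPS at 10 ng/mL with IFN-γ at 25 ng/mL, and no unprimed cells were compared. The control group, PKM2FL/FL, carried the floxed allele without Cre (3 libraries). The PKM2ΔMAC group carried the floxed allele with LysM-Cre, a recombinase placed in the Lyz2 locus and active in myeloid cells (3 libraries). Each library came from 1 mouse, and the groups are described as littermates.

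Replication-dependent histone genes are transcribed mainly in S phase, when DNA is copied. Unlike nearly all other animal mRNAs, theirs normally lack a poly(A) tail. They end shortly after a conserved stem-loop that is bound by SLBP, the stem-loop binding protein, and are degraded when replication stops. Some of these genes also give longer, polyadenylated transcripts in cells that have left the cycle. Histone variants such as H3.3 and H2A.Z come from polyadenylated mRNAs that are made throughout the cell cycle. Macrophages grown in M-CSF are a partly dividing population, so both kinds of histone mRNA may be present.

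The library totals lay between 49957449 and 54524651 counts, and the histone genes took 0.0170% to 0.0208% of them. Levels are given in CPM (counts scaled to the library total) where libraries are compared. Low counts were mostly even: genes with 2 counts were 3.46 to 4.02 times as frequent as genes with 1 count, and 70.6% of the 177 histone values between 1 and 30 counts were even. A count is therefore not 1 independent molecule, and no counting intervals are given. A count of 0 allows up to 3 counts if counts are independent (0.0546 to 0.0604 CPM), and up to 6 if each fragment was counted as a pair (0.109 to 0.121 CPM), for counting error only. The targeted gene, Pkm, had 91540, 88260 and 86644 counts in PKM2FL/FL and 52385, 66569 and 49880 in PKM2ΔMAC, a log2 fold change of -0.68 (SE 0.077, edgeR adjusted p = 0.0091). With each library left out the fold change stayed between -0.78 and -0.62, but the adjusted p was 0.075 to 0.099 without any 1 of the PKM2FL/FL libraries. Its row counts both the PKM1 and PKM2 forms. Lyz2, the locus that carries Cre, fell from 907997 to 951087 counts in PKM2FL/FL to 1334 to 1686 in PKM2ΔMAC. The macrophage markers Cd68 and Adgre1 averaged 2610 and 2063 TPM (counts scaled to gene length as well as to the library). Markers of stromal cells were also present at very uneven levels, from Col1a1 at 1296 TPM to Dcn at 13.2 TPM and Lum at 1.78 TPM. The library PKM2ΔMAC 2 stood apart from the other 5 in its cell-cycle genes, as given below, and results that rest on it are given with and without it.

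The stem-loop was searched after the stop codon of every annotated transcript of the 47 genes, as a stem of 6 base pairs that opens with GG and closes with CC around a loop of 4 bases that opens with T. It was found in 35 genes, and in 1.74% of 66743 coding transcripts in the annotation as a whole. Of the 35 genes, 21 share 1 core, and 5 others, among them H4c8, share a second. The stem-loops below belong to genes among the 3 highest by TPM in their class. They are shown because the annotated distance from this element to the transcript end sorts the genes in what follows. The core of stem and loop is in capitals, 5′ to 3′ on the strand of the gene.
H1f2: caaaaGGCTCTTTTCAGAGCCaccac
H2bc8: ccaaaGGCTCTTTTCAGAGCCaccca
H3c4: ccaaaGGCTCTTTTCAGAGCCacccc
H2ac11: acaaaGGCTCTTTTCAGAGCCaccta
H4c8: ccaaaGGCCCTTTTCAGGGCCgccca
H4c9: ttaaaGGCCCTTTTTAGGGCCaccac

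On GRCm38 these cores lie in the 3′ untranslated regions at chr13:23739512-23739527 on the plus strand (H1f2), chr13:23571843-23571858 on the plus strand (H2bc8), chr13:23576244-23576259 on the plus strand (H3c4), chr13:22042483-22042498 on the minus strand (H2ac11), chr13:23531458-23531473 on the plus strand (H4c8) and chr13:22040966-22040981 on the minus strand (H4c9). The H2ac11 transcript is annotated to stop 23 bases after its core and that of H4c8 46 bases after. The H1f2 transcript instead runs 840 bases past its core, that of H3c4 752 bases, that of H4c9 330 bases and that of H2bc8 155 bases. Taking 100 bases as the limit, 16 genes had only short ends, 22 had a longer or spliced transcript, and the remaining 9 had neither a longer or spliced transcript nor a stem-loop in the annotated sequence. The 22 include 3 spliced genes, H2bc4, Hist1h2bq and Hist1h2br, in which no stem-loop was found either, so that 12 genes in all had none. In 7 of the 9 the annotation ends at most 1 base after the stop codon, so the element could not be seen. The others are H1f1, with 48 bases, and H2bc21, with 2192 bases.

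The poly(A) signal AATAAA, searched on the transcript strand in the last 50 bases, was present in 9 of the 53 coding transcripts of these genes (17.0%) and in 38.6% of all coding transcripts. The final 30 bases of the H1f2 and H2bc21 transcripts are shown since both genes were among those with the highest levels, with the signal in capitals.
H1f2 end: ttctAATAAAaagcgtttagttttcattca
H2bc21 end: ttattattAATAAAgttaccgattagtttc

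These ends lie at chr13:23740338-23740367 and chr3:96223709-96223738 (GRCm38, plus strand). The annotation describes ends that are known, and which end was used in these cells cannot be read from counts per gene.

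On the TPM scale, which allows for gene length, the levels of the 47 genes were very uneven. H1f2 averaged 278 TPM and H2bc4 146 TPM, 6 genes averaged at least 10 TPM, 41 were under 5 TPM and 25 were under 1 TPM. H1f2 alone held 61.0% of all histone counts. The 22 genes with longer or spliced transcripts held 90.0% of the summed histone TPM, the 16 short-ended genes 4.54% and the remaining 9 held 5.49%. All 12 genes without a found stem-loop, H2bc4 among them, held 32.9%. With H1f2 and H2bc4 left out of the total as well, the longer or spliced group held 51.6%, the short-ended genes 21.9% and the remaining 9 genes 26.5%. No gene was at 0 in every library, but 17 were at 0 in at least 1.

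**Figure D1:**
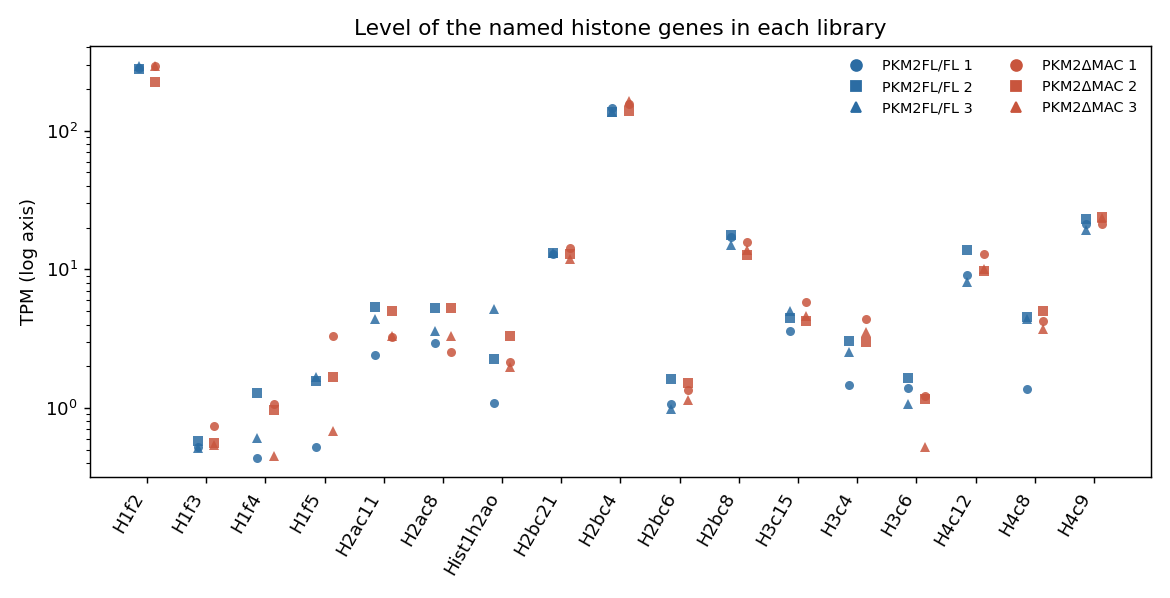
TPM (log axis) of the 17 histone genes chosen by level or by fold change, 1 point per library, with colour for genotype and shape for replicate number. H1f2 and H2bc4 stand above all others, and the genotypes overlap for every gene plotted.

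None of the histone genes passed the test between genotypes. Of the 47, 23 had enough counts to be tested among 16516 genes by edgeR's quasi-likelihood test, and 0 were higher and 0 lower in PKM2ΔMAC at an adjusted p under 0.05, where 0.412% of all tested genes passed. None of the 23 had an unadjusted p under 0.05, against 9.83% of all tested genes, and the smallest was 0.0921. DESeq2 also called 0, with 0 at an unadjusted p under 0.05. Limma on log2(TPM + 1) with a mean of at least 1 TPM called 0, with 1 at an unadjusted p under 0.05. Without that filter limma called 0 of 47, with 3 at an unadjusted p under 0.05 (H2ac7, H2bc13 and Hist1h2ap). The share of all genes under that p is given for edgeR only, so the DESeq2 and limma counts cannot be set against one. Of the 23 log2 fold changes 15 were above 0 and 8 below, with a median of 0.046 beside -0.00021 over all tested genes. The groups overlapped in all 23, whereas 17.2% of all tested genes had groups that did not overlap. The other 24 genes had at most 26 counts in any library.

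**Figure D2:**
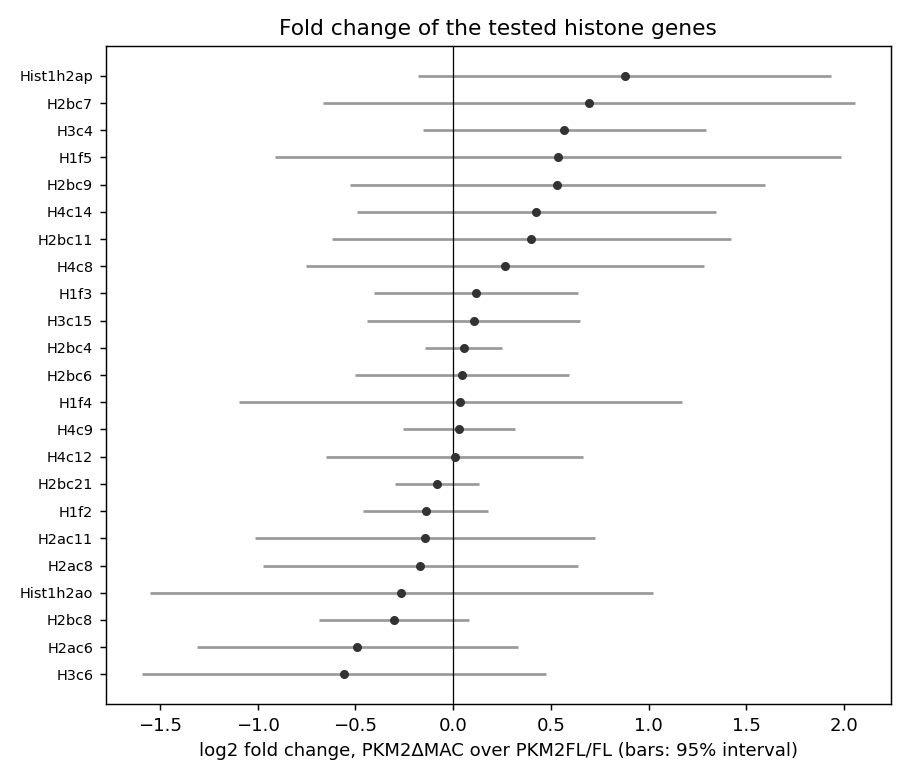
Log2 fold change of PKM2ΔMAC over PKM2FL/FL for the 23 tested histone genes, from edgeR, with 95% intervals as bars. Every interval includes 0, and the narrowest are those of H2bc4, H2bc21 and H4c9.

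The linker histone H1 binds DNA between nucleosomes and compacts chromatin. H1f2 had 128, 122 and 131 CPM in PKM2FL/FL libraries and 126, 91.7 and 128 CPM in PKM2ΔMAC libraries. Of the 6 values, 5 lay close together and PKM2ΔMAC 2 was the lowest. Its log2 fold change was -0.14 (SE 0.13, 95% interval -0.46 to 0.18, edgeR adjusted p = 0.80), and 0.0018 without PKM2ΔMAC 2. The other H1 genes were far lower. H1f3 had 1.12, 1.21 and 1.10 CPM in PKM2FL/FL libraries and 1.53, 1.09 and 1.11 CPM in PKM2ΔMAC libraries, with overlapping groups. H1f5, at 6, 17 and 18 counts against 36, 18 and 7, and H1f4, at 13, 36 and 17 counts against 30, 27 and 12, varied as much within a genotype as between them.

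H2A and H2B form the dimers on the outer faces of the nucleosome core. The H2A genes were all low, and H2ac11, the highest, averaged 3.95 TPM. It had 18, 38 and 31 counts in PKM2FL/FL and 23, 35 and 22 in PKM2ΔMAC. H2ac8 had 32, 54 and 37 counts against 26, 53 and 32. Their log2 fold changes were -0.14 (SE 0.38) and -0.17 (SE 0.35), and the replicates of each genotype spread more widely than the means differed. Without PKM2ΔMAC 2 they were -0.35 and -0.47, and without PKM2FL/FL 2 they were 0.095 and 0.078. Hist1h2ao had 8, 16 and 36 counts against 15, 23 and 13. Hist1h2ap had 9, 20 and 8 counts in PKM2FL/FL and 18, 29 and 22 in PKM2ΔMAC. It is named here after its value was seen, for the smallest unadjusted p of the 23 histone genes tested by edgeR. The log2 fold change of 0.88 (SE 0.46, 95% interval -0.18 to 1.93, edgeR adjusted p = 0.58) did not pass, and the groups overlapped. With each library left out it ranged from 0.66 to 1.41, the highest without PKM2FL/FL 2 (unadjusted p 0.0223, edgeR adjusted p = 0.69). The 9 H2A genes encode 3 distinct proteins, and only 7.35% of the 100-base windows of Hist1h2ao and 7.83% of those of Hist1h2ap occur in no other annotated gene, so that reads of these copies cannot be assigned with certainty.

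Among the 14 H2B genes, H2bc4 held 75.7% of the counts. It had 48.8, 44.6 and 45.5 CPM in PKM2FL/FL libraries and 50.1, 41.8 and 52.4 CPM in PKM2ΔMAC libraries. The groups overlapped, PKM2ΔMAC 2 was again the lowest, and the log2 fold change was 0.054 (SE 0.084, 95% interval -0.14 to 0.25). Without PKM2ΔMAC 2 it was 0.15, with an unadjusted p of 0.0185 and an edgeR adjusted p of 0.248.

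H2bc21, a gene of the smaller cluster on chromosome 3, had 9.83, 9.66 and 9.90 CPM in PKM2FL/FL libraries and 10.2, 8.85 and 8.68 CPM in PKM2ΔMAC libraries. The control libraries lay within a narrow range and the PKM2ΔMAC libraries on both sides of it (log2 fold change -0.082, SE 0.094, 95% interval -0.30 to 0.13). Without PKM2ΔMAC 1 it was -0.16 and without PKM2ΔMAC 3 it was -0.039. H2bc8 had 3.03, 3.10 and 2.64 CPM against 2.68, 2.06 and 2.38 CPM. Only the highest PKM2ΔMAC library of H2bc8 passed the lowest control, and its log2 fold change of -0.30 (SE 0.17, 95% interval -0.69 to 0.081) had an edgeR adjusted p of 0.61. H2bc6 had 1.37, 2.04 and 1.26 CPM against 1.64, 1.77 and 1.41 CPM, with overlapping groups.

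H3 and H4 form the tetramer at the centre of the nucleosome. H3c15 was the highest H3 gene, at 56, 67 and 74 counts in PKM2FL/FL and 87, 62 and 65 in PKM2ΔMAC, with overlapping groups. H3c4 had 28, 56 and 46 counts against 80, 54 and 61. Its log2 fold change was 0.57 (SE 0.32, 95% interval -0.15 to 1.29, edgeR adjusted p = 0.61), and the highest control lay above the lowest PKM2ΔMAC library. Without PKM2FL/FL 1, the lowest library, it was 0.32. H3c6 had 18, 20 and 13 counts against 15, 14 and 6, a log2 fold change of -0.56 (SE 0.45), and -0.28 without PKM2ΔMAC 3.

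H4c9 was the highest H4 gene, at 22.01 TPM. It had 4.44, 4.75 and 4.04 CPM in PKM2FL/FL libraries and 4.24, 4.53 and 4.71 CPM in PKM2ΔMAC libraries, nearly the same range in both genotypes, and a log2 fold change of 0.028 (SE 0.13, 95% interval -0.26 to 0.31). H4c12 had 44, 63 and 37 counts against 59, 44 and 43, and H4c8 had 10, 31 and 30 counts against 29, 34 and 24. The 10 H4 genes encode 1 protein from 9 distinct coding sequences. H4c12 has 35.7% of its 100-base windows to itself, so its counts are less certain than those of H4c9, with 84.9%.

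Of the 24 genes too low to test, H2bc13 had 1, 0 and 0 counts in PKM2FL/FL and 7, 2 and 4 in PKM2ΔMAC, and it is named after its values were seen as the one whose values did not overlap. The 2 counts of PKM2ΔMAC 2 lie under the limit of 3 that a control count of 0 allows. The 4 counts of PKM2ΔMAC 3 lie under the limit of 6 that holds if each fragment was counted as a pair. Fitted without a filter on low values it did not pass, with an unadjusted p of 0.0541 (edgeR adjusted p = 0.60) on counts and of 0.00695 (limma adjusted p = 0.32) on log2(TPM + 1). Only 37.9% of its 100-base windows are its own.

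Summed by class, the levels overlapped between genotypes in every class. The controls summed to 129 ± 4.00 CPM (SD, n = 3) for H1 and the PKM2ΔMAC libraries to 117 ± 20.5 CPM, with 129, 93.7 and 129 CPM. H2B summed to 61.6 ± 2.30 CPM and 62.9 ± 6.22 CPM. The difference in H1 rested on PKM2ΔMAC 2, without which the log2 ratio of -0.14 became 0.0048. In TPM the H1 ratio over all libraries was -0.068.

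The classes without an abundant member were far lower. H2A summed to 2.85 ± 0.81 CPM in PKM2FL/FL libraries and 2.82 ± 0.55 CPM in PKM2ΔMAC libraries. The log2 ratio of -0.015 was 0.16 in TPM, so its sign depends on the unit. The median log2 fold change over all tested genes also lay higher in TPM. By limma on log2(TPM + 1), with a mean of at least 1 TPM, it was 0.063, against -0.00021 by edgeR. H3 summed to 2.93 ± 0.37 CPM and 3.38 ± 0.39 CPM, a log2 ratio of 0.21, with the control libraries at 2.58, 2.87 and 3.33 CPM and the PKM2ΔMAC libraries at 3.83, 3.22 and 3.08 CPM. The ratio was 0.11 without PKM2ΔMAC 1, 0.12 without PKM2FL/FL 1 and 0.31 without PKM2FL/FL 3. H4 summed to 6.79 ± 0.76 CPM and 7.11 ± 0.22 CPM. These sums are descriptions and were not tested.

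**Figure D3:**
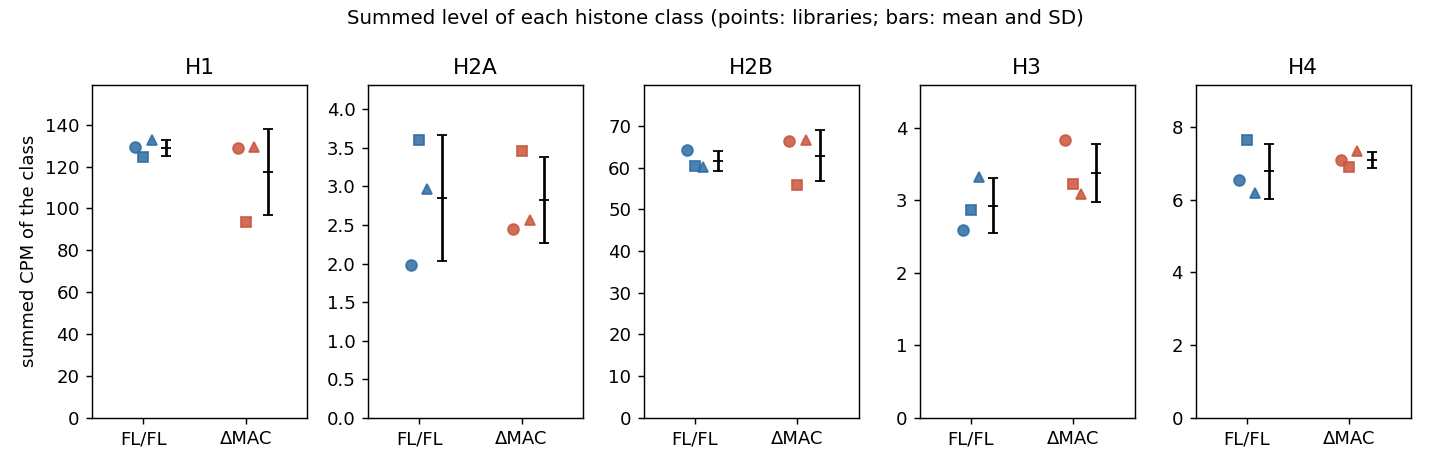
Summed CPM of each histone class in each library, with the mean and SD (n = 3) of each genotype beside the points; each panel has its own axis from 0. The genotypes overlap in all 5 classes, and the lowest H1 value, 93.7 CPM, is that of PKM2ΔMAC 2.

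Over all 47 genes the sum was 205, 199 and 205 CPM in PKM2FL/FL libraries and 209, 163 and 209 CPM in PKM2ΔMAC libraries. Of the 6 libraries 5 lay within 199 to 209 CPM and PKM2ΔMAC 2 lay below them. The log2 ratio of the genotype means was -0.069, and 0.042 without PKM2ΔMAC 2. In TPM the ratio was 0.022, so its sign depends on the unit. The median log2 fold change over all tested genes was itself 0.063 by limma on log2(TPM + 1), against -0.00021 by edgeR. Without H1f2 and H2bc4 the remaining 45 genes summed to 29.8 ± 2.16 CPM and 30.3 ± 2.08 CPM. The 7 rows with the earlier form of symbol summed to 0.64, 1.33 and 1.14 CPM in PKM2FL/FL libraries and 1.56, 1.29 and 1.31 CPM in PKM2ΔMAC libraries, again overlapping.

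The 16 short-ended genes, whose annotated transcripts all stop near the stem-loop, summed to 2.17, 3.18 and 3.41 CPM in PKM2FL/FL libraries and 3.32, 4.22 and 3.06 CPM in PKM2ΔMAC libraries. The groups overlapped, and PKM2ΔMAC 2 was the highest of the 6. It was the lowest for the longer or spliced group, at 148 CPM against 184 to 196 CPM in the other 5. H1f2 and H2bc4 held 91.5% of the counts of that group. Without H1f2 and H2bc4 it summed to 14.6, 17.6 and 14.2 CPM in PKM2FL/FL libraries and 16.6, 14.9 and 15.5 CPM in PKM2ΔMAC libraries. In that sum PKM2ΔMAC 2 was not the lowest library. The log2 ratio of the short-ended sum was 0.28. It was 0.13 without PKM2ΔMAC 2 and 0.10 without PKM2FL/FL 1, and up to 0.40 without PKM2FL/FL 3. The short-ended sums rest on 116 to 232 counts per library.

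Since histone mRNA follows DNA replication, genes of the cell cycle were measured beside it. Of 32 S-phase genes 0 passed the test by edgeR, with 15 at an unadjusted p under 0.05, where 9.83% of all tested genes were, and a median log2 fold change of 0.35. Their summed CPM was 828, 795 and 791 in PKM2FL/FL and 916, 1130 and 913 in PKM2ΔMAC, so all PKM2ΔMAC libraries lay above all controls. Of 20 G2/M genes 0 passed by edgeR, with a median of 0.53 and 7 at an unadjusted p under 0.05 (35%, beside 9.83% of all tested genes). Their sums were 423, 454 and 465 CPM against 552, 865 and 514 CPM. Without PKM2ΔMAC 2 the medians were 0.18 and 0.22.

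PKM2ΔMAC 2 had 141% of the mean control level of the S-phase list and 193% of that of the G2/M list. The same library had 145% of the control level of the short-ended histone genes, 80.3% of that of all 47 histone genes and 72.2% of that of H1f2. The other PKM2ΔMAC libraries had 114% and 113% for the S-phase list, 123% and 115% for the G2/M list and 103% for all histone genes in both. The part of proliferation in the histone levels was not tested. In these bulk samples, more cells in a phase and more RNA per cell cannot be told apart.

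**Figure D4:**
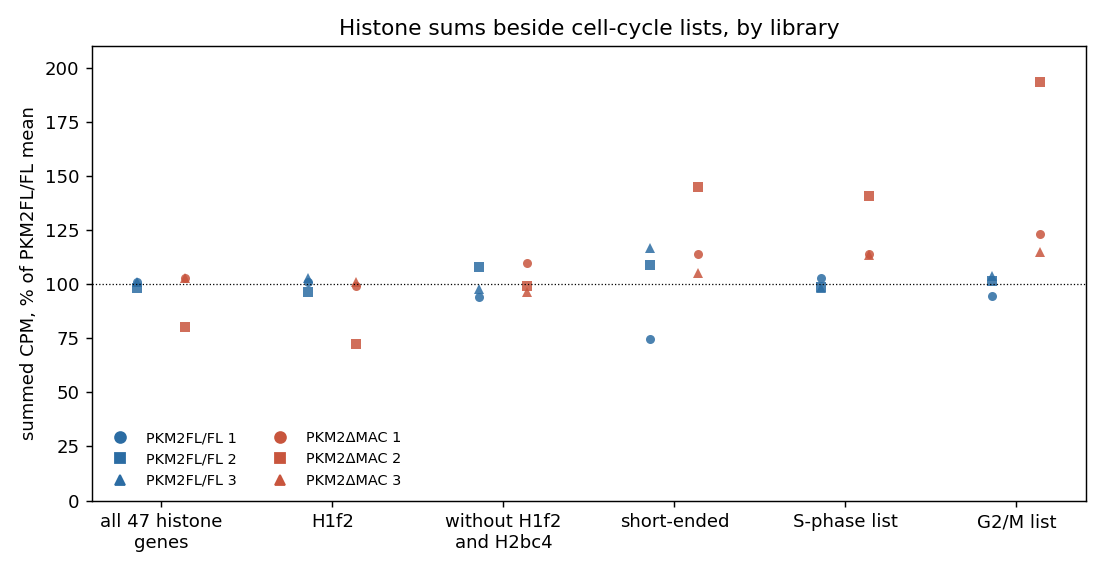
Summed CPM in each library as a percentage of the PKM2FL/FL mean (dotted line at 100), for sets of histone genes and for the S-phase and G2/M lists. PKM2ΔMAC 2 is the lowest point for all 47 histone genes and H1f2 (80.3% and 72.2%) and the highest for the short-ended genes and both cell-cycle lists (145%, 141% and 193%).

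The factors that transcribe and process histone mRNA were measured as well. Of 19 such genes 0 passed the test by edgeR, with 2 at an unadjusted p under 0.05 (10.5%, beside 9.83% of all tested genes) and a median log2 fold change of 0.032. Slbp, whose product binds the stem-loop, had 30.4, 33.8 and 33.4 CPM in PKM2FL/FL libraries and 30.7, 37.2 and 32.9 CPM in PKM2ΔMAC libraries. Npat, the coactivator of histone gene transcription, had 28.7, 32.0 and 31.0 CPM against 30.02, 30.5 and 31.5 CPM, so that the genotypes overlapped for both genes.

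Eri1, an exonuclease that trims and degrades histone mRNA at the stem-loop, had 53.2, 56.7 and 57.2 CPM in PKM2FL/FL libraries and 60.7, 67.0 and 57.8 CPM in PKM2ΔMAC libraries. Cpsf3, the endonuclease that cuts the 3′ end, had 54.3, 54.7 and 55.02 CPM against 59.2, 57.2 and 58.0 CPM. These were the 2 genes with an unadjusted p under 0.05. Their log2 fold changes of 0.15 (SE 0.061) and 0.089 (SE 0.038) had edgeR adjusted p values of 0.47 and 0.50, and without PKM2ΔMAC 2 that of Eri1 was 0.091. The groups did not overlap for Eri1, Cpsf3 and Lsm1, 3 of the 19 genes (15.8%), beside 17.2% of all tested genes. Of 24 histone chaperones, which carry and deposit histones, 0 passed, with 4 at an unadjusted p under 0.05 (16.7%, beside 9.83% of all tested genes) and a median of 0.093, which was 0.028 without PKM2ΔMAC 2. Their log2 fold changes were above 0 in 20 of 24, and the groups did not overlap in 7 (29.2%, beside 17.2%). The chaperones summed to 1851, 1864 and 1871 CPM in PKM2FL/FL libraries and 1915, 2049 and 1909 CPM in PKM2ΔMAC libraries, so that every PKM2ΔMAC library lay above every control library, PKM2ΔMAC 2 the highest.

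The variant histones, which are made from polyadenylated mRNA outside S phase as well, were higher than nearly all the replication-dependent genes. H3f3b and H3f3a, which both encode H3.3, averaged 425 and 380 TPM and H2az1 372 TPM, above the 278 TPM of H1f2. Of 11 variant genes 0 passed by edgeR, with 1 at an unadjusted p under 0.05 (9.09%, beside 9.83% of all tested genes). This was H2ax, the variant phosphorylated at DNA breaks, at 26.7, 25.7 and 24.0 CPM in PKM2FL/FL libraries and 28.9, 38.5 and 29.6 CPM in PKM2ΔMAC libraries, where PKM2ΔMAC 2 was the highest (log2 fold change 0.34, SE 0.11, edgeR adjusted p = 0.39). Without PKM2ΔMAC 2 the log2 fold change of H2ax was 0.20. H1f0, the linker histone of resting cells, had 58.1, 59.98 and 58.9 CPM against 58.2, 47.6 and 58.4 CPM. As for H1f2, PKM2ΔMAC 2 was the lowest library of H1f0.

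Other RNAs without a poly(A) tail could be read only in part, since 3 of 10 listed had a row and 1 could be tested. Rn7sk, the 7SK RNA, had 1048, 532 and 554 counts in PKM2FL/FL and 65, 72 and 863 in PKM2ΔMAC. PKM2ΔMAC 3 lay among the controls while the other PKM2ΔMAC libraries lay below all of these, and the log2 fold change of -1.04 (SE 1.12) did not pass the test. Without PKM2ΔMAC 3 it was -3.42 (edgeR adjusted p = 0.051), and without PKM2ΔMAC 1 it was -0.55. The order of the libraries by Rn7sk differed from that by histone sum, and its part in the histone levels was not tested. Markers of neutrophils, which also arise from bone marrow, summed to 20.9, 36.5 and 50.8 CPM in PKM2FL/FL libraries and 124, 91.0 and 172 CPM in PKM2ΔMAC libraries, so that the groups did not overlap. By edgeR 0 of 9 tested markers passed, with 5 at an unadjusted p under 0.05 (9.83% of all tested genes), all 9 above 0 (49.9% of all tested genes) and a median log2 fold change of 1.76. Their part was not tested either.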

How the data were processed

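Total RNA of 6 BMDM cultures was sequenced with a SMARTER kit. Per the submitters' processing notes, the authors used FastQC 0.12.1, Trim Galore 0.6.10, HISAT2 2.2.1, SAMtools 1.19.2 and Subread 2.0.6 with mm10, and deposited raw counts per gene and TPM values. Poly(A) selection, strand, multi-mapping and annotation are not given in the sources used here. The gene lengths implied by the TPM values, scaled to the median gene and rounded to whole bases, equalled the GENCODE M21 exon lengths for all 47 genes.

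CPM were computed on TMM-scaled totals (factors 0.980 to 1.04). Genes passing filterByExpr were tested with edgeR 4.0.16 (glmQLFit, robust, Benjamini-Hochberg over all genes; R 4.3.3), and limma 3.58.1 and DESeq2 1.42.0 were alternatives. Scripts were tested on simulated data. Exact permutation tests used log2(CPM + 0.1). No 2 libraries of a genotype agreed within sampling noise.

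Named genes were the 3 highest by TPM in each class and the 5 largest rises at 1 CPM or more. Up to 5 falls at 1 CPM or more were to be named, and only H1f2, H2bc21 and H2bc8 fell. Any gene called and members of the processing and variant lists were named as well. Members and lists were chosen with earlier results of these data known.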

Additional observations from a re-analysis of the deposited data

How the results depend on the processing

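The count of histone genes called stayed at 0 in both directions under every alternative: DESeq2, RLE or upper-quartile scaling, no filter, at least 10 counts in every library, down-sampled totals, non-robust estimation, limma on TPM, and each library left out, as well as halved counts, chosen after seeing the data. Over all genes, edgeR called 47 higher and 21 lower, DESeq2 195 and 107, no filter 77 and 43, and the fit without PKM2ΔMAC 2 164 and 135. Same-numbered libraries correlated at 0.080, 0.14 and 0.019, and differently numbered ones at -0.12 to 0.067. Whether same-numbered libraries share more than a number was not tested. The replicate block called 54 higher and 28 lower overall and 0 histone genes.

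With each library left out, the log2 ratio of all histone genes ranged from -0.13 to 0.042, H1 from -0.21 to 0.0048, H2A from -0.22 to 0.19, H2B from -0.013 to 0.11, H3 from 0.11 to 0.31 and H4 from 0.0032 to 0.16. The median of tested histone genes ranged from -0.045 to 0.16. Single genes, none called, crossed 0: H1f2 (-0.22 to 0.0018), H1f3 (-0.059 to 0.20), H1f4 (-0.24 to 0.58), H1f5 (-0.16 to 0.92), H2ac11 (-0.41 to 0.095), H2ac8 (-0.47 to 0.078), H2bc4 (-0.013 to 0.15), H2bc6 (-0.084 to 0.29), H3c15 (-0.053 to 0.22), H4c12 (-0.14 to 0.25), H4c8 (-0.11 to 0.50), H4c9 (-0.032 to 0.085), Hist1h2ao (-0.65 to 0.49), Slbp (-0.032 to 0.11) and Npat (-0.040 to 0.039). Hist1h2ao was also 0.035 by limma on log2(TPM + 0.1). Pkm lost its call without each PKM2FL/FL library and by limma on TPM (log2 fold change -0.61, adjusted p 0.11 to 0.18). In TPM, the 9 genes with neither a longer or spliced transcript nor a found stem-loop had a log2 ratio of 0.11, against -0.042 in CPM, and all 12 without a found stem-loop 0.12, against 0.037. The median log2 fold change over all tested genes was 0.063 by limma on log2(TPM + 1), with a mean of at least 1 TPM, against -0.00021 by edgeR. The causes were not tested. Low counts limit most genes beyond H1f2, H2bc4, H2bc21 and H4c9.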

Other observations

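Genes whose earlier symbols belong to the histone clusters but whose present symbols fall outside the rule were read apart. H2aw, an H2A gene, had 289, 275 and 272 counts in PKM2FL/FL and 301, 282 and 283 in PKM2ΔMAC, more than any H2A gene within the rule. H2bu2 had 8, 8 and 12 counts against 10, 4 and 4, and H4f16 had 6, 2 and 8 against 2, 0 and 2.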
